A study of Homo sapiens with 8 samples.

Results

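MicroRNA host genes are longer transcripts from whose loci one or more microRNAs are cut. This account covers the genes whose symbol begins with MIR and ends in HG (MIR-HG genes) in U251 cells treated with LLY-283. The members were chosen by their symbol and selected on a measured value, a mean of at least 0.1 TPM over all 8 libraries. TPM is a gene's abundance per transcript length as a share of the library. Of the 61906 genes listed, 84 had such a symbol, and 40 of these passed the limit. Another 18 were above 0 and under 0.1 TPM, and 26 were listed at 0 in every library. The limit used both groups together, and the same 40 genes passed it on the vehicle mean alone. On the LLY-283 mean alone MIR2052HG (0.0825 TPM) failed and MIR378D2HG passed. On either side of the limit, MIR2052HG (mean 0.101 TPM, from 0.01 to 0.26) and MIR497HG (0.139 TPM, from 0.02 to 0.26) were just inside. MIR137HG (0.0813 TPM, from 0.04 to 0.2) and MIR378D2HG (0.0925 TPM, from 0 to 0.32) were just outside.

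U251 is an established human glioblastoma line, labelled wild type, grown in DMEM with serum, and LLY-283 inhibits PRMT5, which methylates arginines symmetrically in proteins that include many of the splicing machinery. In the comparison, 4 vehicle libraries (DMSO) were set against 4 of cells given LLY-283 at 100 nM, all after 24 h. The labels call the replicates biological, but all cells are of 1 line and the libraries are bulk, so fewer cells of a kind and less RNA per cell cannot be told apart. RNA was captured by its poly(A) tail. The depth of the libraries is unknown because TPM keeps no read number, and no counting error can be given for low genes. The glioma and astrocytic markers VIM, NES, SOX2, CD44 and GFAP were abundant, with mean values from 94.5 TPM for SOX2 to 4211 TPM for VIM, while S100B was low (3.77 TPM) and ALDH1L1 was near 0 (0.0413 TPM). NES, SOX2 and GFAP were lower in every LLY-283 library than in any vehicle library, and CD44 was higher. GFAP was 778.18 to 839.89 TPM in vehicle and 662.82 to 700.97 TPM in LLY-283. SOX2 was 99.43 to 107.16 and 84.48 to 87.08 TPM, and CD44 1530.9 to 1638.18 and 1679.63 to 1731.9 TPM. The groups overlapped in VIM, S100B and ALDH1L1. Any link of these shifts to the members was not tested. The 8 markers of immune, endothelial, epithelial and neuronal cells summed to 6.06 to 9.16 TPM in the vehicle and 5.98 to 6.82 TPM in the LLY-283 libraries, most of it from SYT1 and CD68, with PTPRC, PECAM1, EPCAM and RBFOX3 at a mean of at most 0.055 TPM.

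A microRNA arises when DROSHA and DGCR8 cut a hairpin out of a primary transcript in the nucleus, after which XPO5 exports the hairpin and DICER1 trims it to a short duplex. One strand enters an Argonaute protein and guides it to target messages, mainly through pairing of its seed, bases 2 to 8. The host transcript can hold the hairpin in an intron, which leaves the spliced host RNA whole, or in an exon, where cutting destroys that copy of the host. The poly(A) RNA measured here is therefore host RNA, not mature microRNA, and its level need not follow that of the microRNA. In glioma, miR-221 and miR-222 are known as oncogenic and let-7 as growth-restraining, miR-210 is a classic product of the hypoxia response, and the miR-17 cluster is induced by MYC.

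The mature sequences below, from RefSeq on GRCh38.p14, are those of the host genes that the results turn on, written 5′ to 3′ with the seed in capitals. The first set carries the let-7 seed, which microRNAs of 7 member hosts share. It is shown because those hosts did not move together. let-7a comes from MIR100HG, MIRLET7A1HG and MIRLET7BHG, let-7b from MIRLET7BHG, let-7c from MIR99AHG, let-7i from MIRLET7IHG, and the last pair from MIR4458HG and MIR4500HG.
hsa-let-7a-5p: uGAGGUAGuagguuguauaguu
hsa-let-7b-5p: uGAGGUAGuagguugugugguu
hsa-let-7c-5p: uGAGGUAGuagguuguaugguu
hsa-let-7i-5p: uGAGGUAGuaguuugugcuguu
hsa-miR-4458: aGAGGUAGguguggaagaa
hsa-miR-4500: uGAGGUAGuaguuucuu

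The second set comes from the related clusters of MIR99AHG (miR-99a, let-7c, miR-125b) and MIR100HG (miR-100, let-7a, miR-125b). It is shown because the hosts changed in opposite directions while miR-99a-5p and miR-100-5p have the same seed and miR-125b-5p is the same molecule from both.
hsa-miR-99a-5p: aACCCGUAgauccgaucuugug
hsa-miR-100-5p: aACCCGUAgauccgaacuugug
hsa-miR-125b-5p: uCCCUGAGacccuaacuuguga

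The third set holds a main product of each of the other hosts that changed, and of MIR222HG, whose value depended on 1 library. The miR-221 and miR-222 strands have the same seed, as do the miR-181 strands.
hsa-miR-210-3p: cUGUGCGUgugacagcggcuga
hsa-miR-22-3p: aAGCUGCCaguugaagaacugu
hsa-miR-503-5p: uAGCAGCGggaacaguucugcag
hsa-miR-181a-5p: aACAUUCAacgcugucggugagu
hsa-miR-181b-5p: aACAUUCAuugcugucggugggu
hsa-miR-1915-3p: cCCCAGGGcgacgcggcggg
hsa-miR-4435: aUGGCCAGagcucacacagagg
hsa-miR-221-3p: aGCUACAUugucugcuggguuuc
hsa-miR-222-3p: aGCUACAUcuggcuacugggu

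In all, RefSeq gave 124 mature microRNAs for 36 of the 40 members, with chromosome 8, where MIR2052HG lies, left out of the count. They held 101 different seeds, of which 7 occurred in more than 1 host. Besides those above, MIR17HG (miR-92a-3p) and MIR302CHG (miR-367-3p) shared a seed, and MIR181A1HG shared the miR-181 seed with MIR181A2HG. Among opposite strands, MIRLET7A1HG and MIRLET7BHG shared a seed of their let-7 3p strands, and both miR-181 hosts one of their miR-181b 3p strands.

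The LLY-283 replicate 4 library stood apart. Genes of the mitochondrial genome made up 7.19% of its TPM, against 10.6 to 11.0% in the other LLY-283 libraries and 10.2 to 10.8% in the vehicle libraries. It had the lowest value of the LLY-283 group in 17 of the 25 members with a mean of at least 1 TPM (68.0%), compared with 37.5% of all genes and 42.5% of lncRNAs above the same level. The summed TPM of the members was 302.2, 298.2, 294.1 and 304.8 in vehicle replicates 1 to 4 and 274.2, 269.2, 261.0 and 228.4 in LLY-283 replicates 1 to 4. Every LLY-283 library was below every vehicle library in this sum. The number of genes above 0 TPM was also lower in each LLY-283 library (24042 to 24315) than in each vehicle library (24386 to 24757). Between replicates, the correlation of log2(TPM + 0.1) over the genes tested lay between 0.969 and 0.973 in both groups. Results are therefore given with this library, and without it where it matters, and its part in any result beyond that was not tested.

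The groups were compared with limma on log2(TPM + 0.1) over all 21179 genes that average 0.1 TPM or more, with Benjamini-Hochberg adjustment over all of them. A gene was called when its adjusted p was under 0.05, and fold changes are on this log2 scale, which understates the change of low genes. Of the 40 members, 9 were decreased by LLY-283 and 1 was increased (MIR99AHG). The decreased members were MIR210HG, MIR1915HG, MIRLET7IHG, MIR503HG, MIR22HG, MIR181A2HG, MIRLET7BHG, MIR100HG and MIR4435-2HG. These counts are 22.5% and 2.5% of the members, and the background among all genes tested was 11.7% decreased and 5.25% increased. With a change above 1.5-fold, 3 members (MIR210HG, MIR1915HG and MIRLET7IHG) were decreased and 0 increased, against a background of 3.32% and 0.401%. This count of 3 was 1 with a pseudocount of 1 and 1 under quantile normalization. At an unadjusted p under 0.05, 12 members had a negative and 1 a positive fold change, where 20.9% and 9.76% of all genes tested did. The count of 9 rested in part on single libraries, since it was 4 without vehicle replicate 4, 5 without LLY-283 replicate 3 and 8 without LLY-283 replicate 4, where 2 members were increased. The share of all genes tested that was decreased was 8.14%, 9.23% and 12.2% in these fits, and 6.5% were increased in the last. With a block on replicate number 5 members were decreased, against 8.97% of all genes tested. Processing mattered too, with 6 members decreased under quantile normalization and 6 without the eBayes trend. The share of all genes tested that was decreased was then 8.16% and 9.29%.

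The fold change was negative for 31 members and positive for 9 (13054 and 8125 of all genes tested), with a median of -0.268, compared with a median of -0.067 over all genes tested. The members' median was -0.145 and -0.125 with pseudocounts of 0.5 and 1, and -0.078 under quantile normalization, where that of all genes was 0.013. The 4 LLY-283 values lay below all 4 vehicle values in 10 members, the 9 decreased ones and MIR9-1HG, and above them in 1, MIR99AHG. The backgrounds for such separation were 15.5% and 6.95% of all genes tested. Of the 25 members with a mean of at least 1 TPM, 8 were decreased and 1 was increased (32.0% and 4.0%), against 15.7% and 7.47% of the 14478 genes at that level. Of the 15 lower members, 1 was decreased (6.67%), against 3.19% of the genes tested at under 1 TPM. The spread between vehicle libraries was larger in the lower members, with a median coefficient of variation of 31.4% (range 8.33 to 95.3%) compared with 10.2% (1.75 to 25.4%) in those of at least 1 TPM. The 5 most abundant members, MIR4435-2HG, MIR210HG, MIR99AHG, MIR222HG and MIR100HG, held 67.0% of the summed member TPM.

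**Figure D1:**
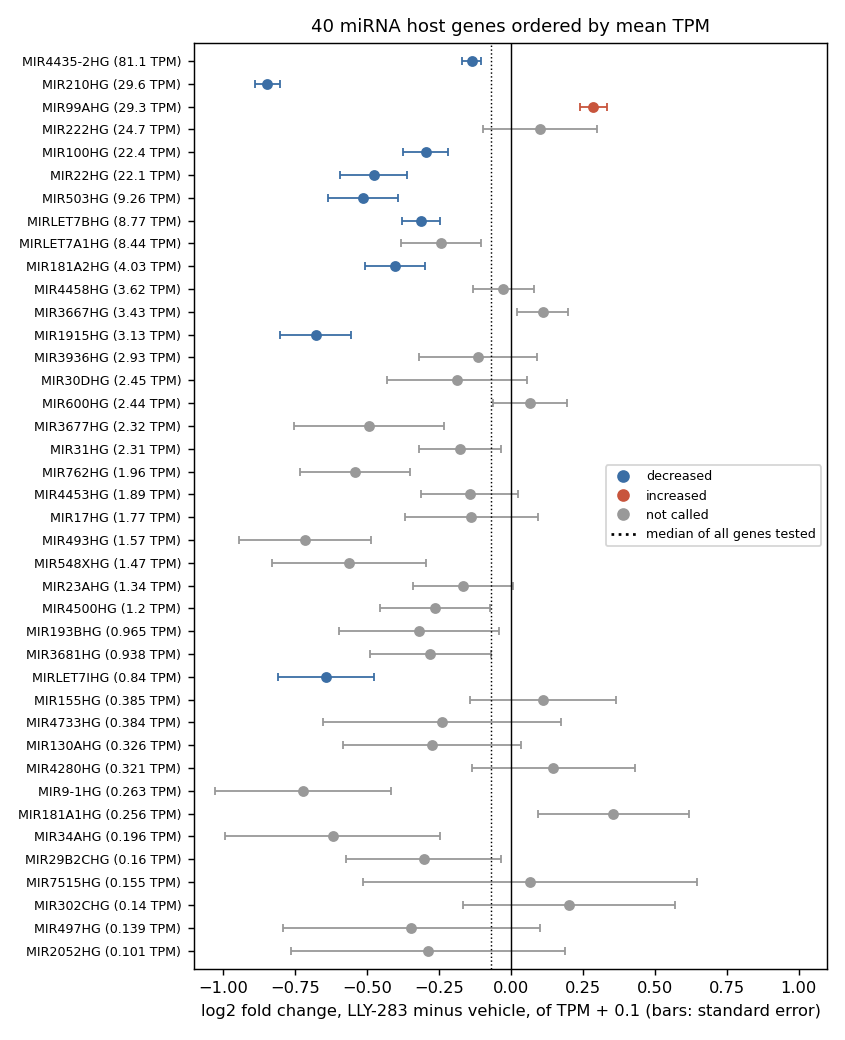
The log2 fold change (LLY-283 minus vehicle, of TPM + 0.1) of the 40 members on the horizontal axis, ordered from the highest mean TPM at the top. Points are limma estimates with bars of 1 standard error, blue for the 9 decreased, red for the 1 increased and grey for the 30 not called, and the dotted line is the median of all genes tested (-0.067).

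The first list holds 10 hosts linked to stress, hypoxia, p53 and proliferation. All 10 were tested, 3 were decreased (MIR210HG, MIR503HG and MIR22HG) and 0 increased, where 11.7% and 5.25% of all genes tested were. Their median fold change was -0.247 (-0.067 for all genes tested).

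MIR210HG (ENSG00000247095), the host of the hypoxia-induced miR-210, lies on the minus strand of chromosome 11 at 565657 to 568457 (GRCh38) and overlaps no other annotated gene. Its TPM was 39.19, 37.31, 37.06 and 38.56 in the vehicle libraries and 21.00, 22.17, 21.62 and 19.77 in the LLY-283 libraries. The groups were far apart and each was tight. The mean fell from 38.0 ± 1.01 to 21.1 ± 1.03 TPM (SD, n = 4 each), a 1.80-fold decrease (log2 fold change -0.85, SE 0.0436, adjusted p = 1.88e-05 by limma). This was the largest fold change among the 40 members, and the call held under all 17 alternatives tried, with an adjusted p of at most 0.00259.

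MIR503HG (ENSG00000223749) is the host of miR-503, which restrains cell cycle entry, and lies on the minus strand of chromosome X at 134543119 to 134546642, overlapping no other gene. Its TPM was 11.76, 10.31, 10.60 and 10.77 in vehicle and 9.05, 8.74, 6.59 and 6.29 in LLY-283. The groups did not overlap, but the LLY-283 values fell into a higher and a lower pair. The mean went from 10.9 ± 0.629 to 7.67 ± 1.43 TPM (log2 fold change -0.51, SE 0.121, adjusted p = 0.0194). The call was lost without vehicle replicate 1 or LLY-283 replicate 3 (adjusted p up to 0.054).

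MIR22HG (ENSG00000186594), a stress-responsive host with miR-22 in an exon, lies on the minus strand of chromosome 17 at 1711447 to 1717174. Its TPM was 25.16, 25.41, 24.74 and 26.99 in vehicle and 20.67, 19.79, 20.10 and 13.81 in LLY-283. Replicate 4 was far below the other LLY-283 libraries, yet these too were below every vehicle value. The mean fell from 25.6 ± 0.983 to 18.6 ± 3.21 TPM (log2 fold change -0.48, SE 0.117, adjusted p = 0.0226). Without LLY-283 replicate 4 the fold change was -0.34 and the adjusted p 0.00124. The call was lost without vehicle replicate 2 or 4 (adjusted p up to 0.0635) and without the eBayes trend (adjusted p = 0.0595). A block on replicate number also ended it (adjusted p = 0.0525). WDR81, which MIR22HG overlaps on the opposite strand, had a fold change of -0.08 (adjusted p = 0.293).

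The other 7 hosts of this list were not called. MIR17HG, the host of the MYC-induced miR-17 cluster, had means of 1.83 TPM in vehicle and 1.71 TPM in LLY-283 (adjusted p = 0.735). MIR23AHG had means of 1.42 and 1.27 TPM (adjusted p = 0.573) and MIR31HG of 2.44 and 2.18 TPM (adjusted p = 0.454). MIR155HG, MIR34AHG, a host of the p53-induced miR-34a, and MIR193BHG were under 1 TPM and not called.

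MIR222HG (ENSG00000270069), the host of miR-221 and miR-222 on the minus strand of chromosome X at 45745210 to 45770274, was the fourth most abundant member. Its TPM was 25.20, 23.08, 22.62 and 22.50 in vehicle and 30.96, 29.63, 28.28 and 15.13 in LLY-283. In LLY-283 replicates 1 to 3 it was above every vehicle library, while in replicate 4 it was below all of them. With all libraries the fold change was 0.10 (SE 0.2, adjusted p = 0.775). Without LLY-283 replicate 4 it was 0.34 and the adjusted p 0.00315, and without LLY-283 replicate 1 it was -0.00017.

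**Figure D2:**
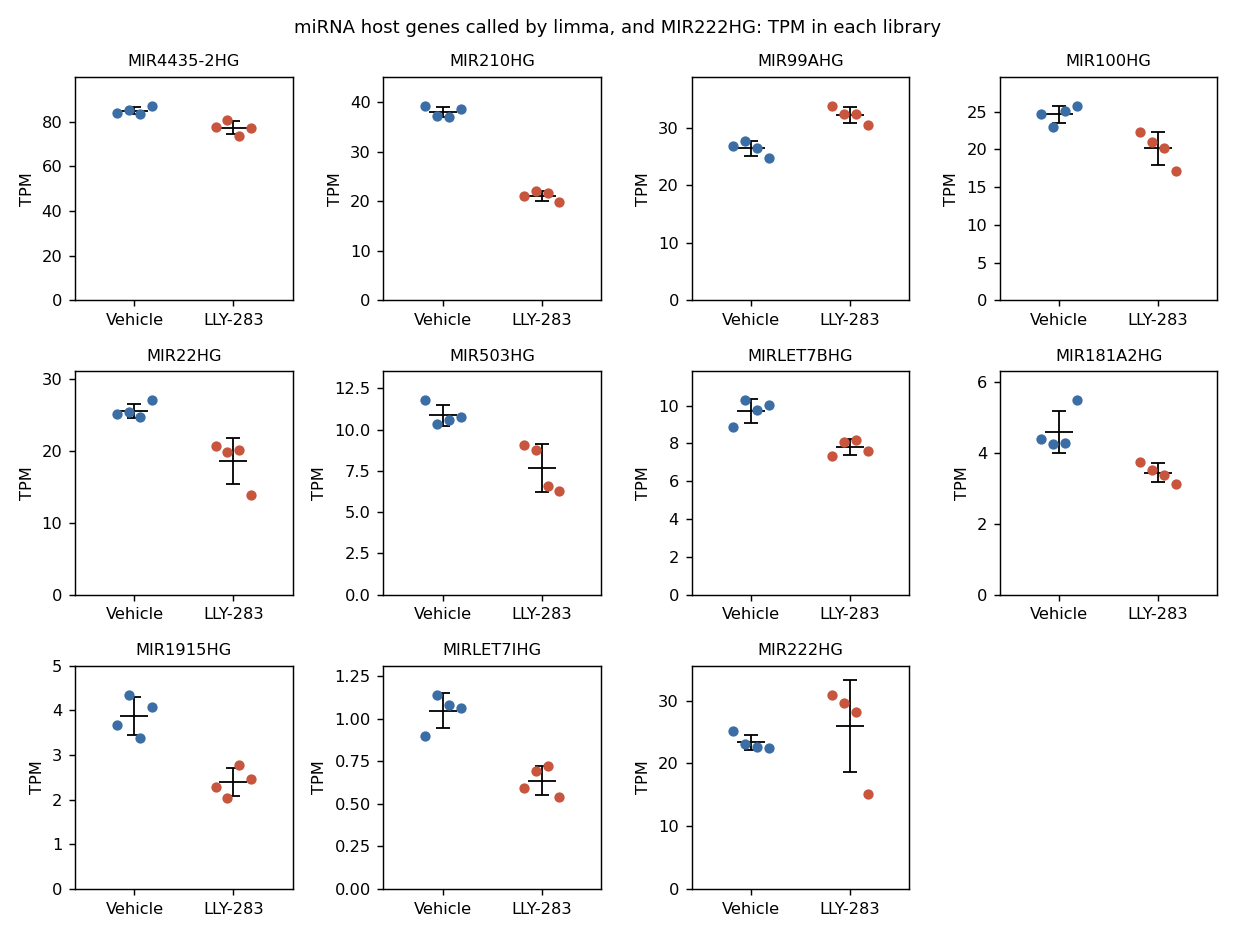
TPM in each library (vertical axis, linear, from 0, scaled per gene) for the 10 called members and MIR222HG, with vehicle in blue, LLY-283 in red, libraries placed in replicate order from left to right within a group, and the mean and SD of each group in black. The LLY-283 points of MIR210HG lie between 19.77 and 22.17 TPM, and those of MIR222HG lie above vehicle except for replicate 4 at 15.13 TPM.

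The second list holds 7 hosts of let-7, miR-99/100, miR-125, miR-29 and miR-181 clusters, microRNAs linked to differentiation and growth restraint. MIRLET7IHG, though a let-7 host, is not on this list and is counted with the members outside the lists. All 7 were tested, 3 were decreased (MIRLET7BHG, MIR100HG and MIR181A2HG) and 1 was increased (MIR99AHG), beside 11.7% and 5.25% of all genes tested. The median fold change was -0.295 (-0.067 for all genes tested).

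MIR99AHG (ENSG00000215386), on the plus strand of chromosome 21 at 15928296 to 16646364, was the only member called increased. Its TPM was 26.83, 27.66, 26.39 and 24.70 in vehicle and 33.72, 32.38, 32.40 and 30.39 in LLY-283. Every LLY-283 library was above every vehicle library, replicate 4 included. The mean rose from 26.4 ± 1.25 to 32.2 ± 1.37 TPM (log2 fold change 0.29, SE 0.0471, adjusted p = 0.00365). The call held under all 17 alternatives, with an adjusted p of at most 0.0164.

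MIR100HG (ENSG00000255248), on the minus strand of chromosome 11 at 122028325 to 122556721, changed the other way. Its TPM was 24.73, 23.00, 25.11 and 25.71 in vehicle and 22.24, 20.97, 20.23 and 17.10 in LLY-283. The groups did not overlap, but the gap between them was narrow and replicate 4 was lowest. The mean fell from 24.6 ± 1.16 to 20.1 ± 2.19 TPM (log2 fold change -0.30, SE 0.0775, adjusted p = 0.0298). The call was lost without vehicle replicate 1, 3 or 4 or LLY-283 replicate 3 (adjusted p up to 0.081) and without the eBayes trend (adjusted p = 0.0696). It was also lost with a block on replicate number (adjusted p = 0.067).

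The log2 ratio of MIR99AHG to MIR100HG within a library was 0.117, 0.265, 0.071 and -0.058 in vehicle and 0.598, 0.624, 0.677 and 0.826 in LLY-283. The hosts of the sister clusters were thus near equal in vehicle, and MIR99AHG was the higher in every LLY-283 library. The mean ratio went from 0.10 ± 0.13 to 0.68 ± 0.10, a difference of 0.58, given as a description because the pair was picked after the values were seen. It ranged from 0.53 to 0.64 when each library was left out in turn.

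MIRLET7BHG (ENSG00000197182) carries let-7a and let-7b in exons and lies on the plus strand of chromosome 22 at 46053869 to 46113928. Its TPM was 8.85, 10.27, 9.76 and 10.01 in vehicle and 7.34, 8.10, 8.20 and 7.59 in LLY-283. The groups did not overlap and replicate 4 lay within the LLY-283 range. The mean fell from 9.72 ± 0.618 to 7.81 ± 0.411 TPM (log2 fold change -0.31, SE 0.0668, adjusted p = 0.0128). The call held with any 1 library left out, with an adjusted p of at most 0.0415, and was lost under quantile normalization (adjusted p = 0.0691). PRR34-AS1, a more abundant gene that it overlaps on the same strand, had means of 47.1 and 41.1 TPM (log2 fold change -0.20, adjusted p = 0.124), and the value of MIRLET7BHG may hold its reads.

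MIRLET7IHG (ENSG00000257354), on the plus strand of chromosome 12 at 62602752 to 62622213, was low. Its TPM was 0.90, 1.14, 1.08 and 1.06 in vehicle and 0.59, 0.69, 0.72 and 0.54 in LLY-283. All LLY-283 values were below all vehicle values. The mean fell from 1.05 to 0.635 TPM (log2 fold change -0.64, SE 0.167, adjusted p = 0.0289). The call was lost without vehicle replicate 2, 3 or 4 or LLY-283 replicate 1 or 4 (adjusted p up to 0.0781), with no filter on low values (adjusted p = 0.0730) and under quantile normalization (fold change -0.43, adjusted p = 0.104). A block on replicate number also ended it (adjusted p = 0.0697). With a pseudocount of 1 the fold change was -0.32, and the gene was no longer past 1.5-fold. ENSG00000275180, a more abundant lncRNA that MIRLET7IHG overlaps on the same strand, had means of 2.97 and 2.57 TPM (log2 fold change -0.27, adjusted p = 0.545). The value of MIRLET7IHG may hold reads of that gene.

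The other hosts with the let-7 seed were not called. MIRLET7A1HG, with let-7a, let-7f and let-7d, had means of 9.11 and 7.78 TPM (log2 fold change -0.24, adjusted p = 0.271), and without LLY-283 replicate 4 the fold change was -0.0994. MIR4458HG had means of 3.65 and 3.58 TPM (adjusted p = 0.898), and its fold change of -0.03 turned positive under quantile normalization and under median-of-ratios scaling. MIR4500HG had means of 1.33 and 1.07 TPM (adjusted p = 0.397). Thus, of the 7 hosts of microRNAs with this seed, 3 were decreased, 1 was increased and 3 were not called, beside a background of 11.7% decreased and 5.25% increased.

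**Figure D3:**
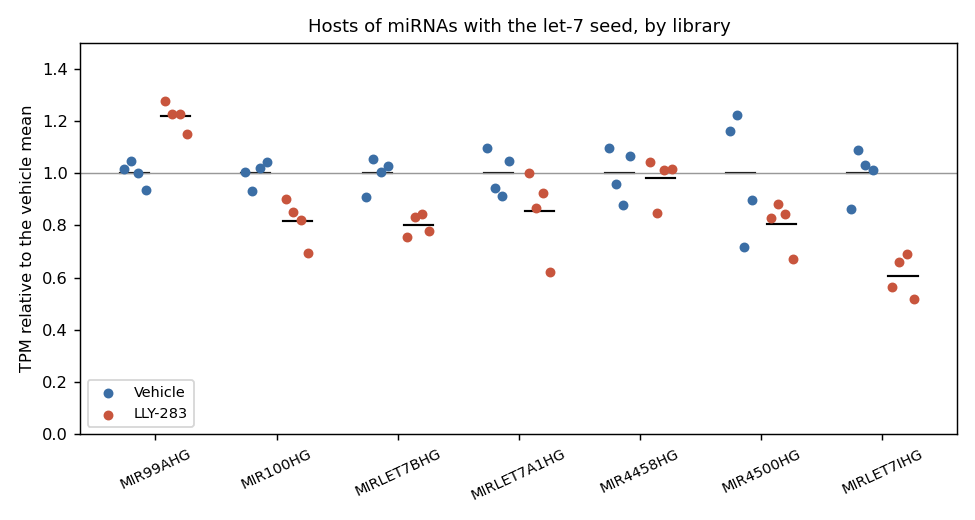
TPM in each library divided by the vehicle mean of the same gene (vertical axis, linear, no unit) for the 7 hosts of microRNAs with the let-7 seed, vehicle in blue and LLY-283 in red, with group means as black bars. MIR99AHG lies above 1 in all 4 LLY-283 libraries, and MIR100HG, MIRLET7BHG, MIRLET7IHG and MIR4500HG, which was not called, lie below 1 in all 4.

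MIR181A2HG (ENSG00000224020), host of miR-181a and miR-181b, lies on the plus strand of chromosome 9 at 124658412 to 124698635, wholly within NR6A1 on the opposite strand. Its TPM was 4.40, 4.25, 4.29 and 5.49 in vehicle and 3.76, 3.53, 3.37 and 3.14 in LLY-283. The groups did not overlap, and vehicle replicate 4 was far above the rest. In the LLY-283 group the mean fell from 4.61 ± 0.592 to 3.45 ± 0.261 TPM (log2 fold change -0.40, SE 0.106, adjusted p = 0.0299). The call was lost when vehicle replicate 1 or 4 or LLY-283 replicate 2, 3 or 4 was left out (adjusted p up to 0.0683), and under quantile normalization, where the fold change was -0.24 (adjusted p = 0.159). A block on replicate number also ended it (adjusted p = 0.0831). NR6A1 had a fold change of -0.29 (adjusted p = 0.244). MIR181A1HG, the host of the sister cluster, was near the limit at 0.215 and 0.298 TPM and was not called (adjusted p = 0.406), and neither was MIR29B2CHG (0.188 and 0.133 TPM).

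Of the 22 members outside these lists and the neural list, 3 were decreased (MIR1915HG, MIR4435-2HG and MIRLET7IHG) and 0 increased. The share decreased, 13.6%, was near the 11.7% of all genes tested, and the median fold change was -0.251 (-0.067 for all genes tested). MIR1915HG (ENSG00000204682) lies on the minus strand of chromosome 10 at 21490272 to 21497260 and overlaps no other gene. Its TPM was 3.68, 4.35, 3.39 and 4.07 in vehicle and 2.29, 2.03, 2.78 and 2.46 in LLY-283. The highest LLY-283 value was below the lowest vehicle value, and replicate 4 was in the middle of its group. With LLY-283 the mean fell from 3.87 ± 0.423 to 2.39 ± 0.314 TPM (log2 fold change -0.68, SE 0.123, adjusted p = 0.00614), and the call held under all 17 alternatives with an adjusted p of at most 0.0334.

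MIR4435-2HG (ENSG00000172965), the most abundant member, lies on the minus strand of chromosome 2 at 111006015 to 111523376. Its TPM was 83.96, 85.14, 83.59 and 86.89 in vehicle and 77.81, 80.53, 73.73 and 77.13 in LLY-283. The groups did not overlap, yet the change was the smallest of the called members. The LLY-283 mean was 77.3 ± 2.80 TPM, below the 84.9 ± 1.49 TPM of vehicle (log2 fold change -0.14, SE 0.0325, adjusted p = 0.0206). The call was lost without vehicle replicate 2 or 4 or LLY-283 replicate 3 (adjusted p up to 0.0636) and under median-of-ratios scaling (fold change -0.08, adjusted p = 0.193) and without the eBayes trend (adjusted p = 0.0737). This gene has a near-identical copy, CYTOR, so that reads can be assigned to either and both values are uncertain. CYTOR fell from 74.3 ± 2.49 to 56.0 ± 2.85 TPM, a log2 fold change of -0.41 (adjusted p = 0.000459).

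The 2 members nearest to a call among those not called were MIR493HG and MIR762HG. MIR493HG had 1.88, 2.48, 1.92 and 1.56 TPM in vehicle and 1.1, 0.75, 1.23 and 1.64 TPM in LLY-283. Its groups overlapped through LLY-283 replicate 4, the highest of its group here, above vehicle replicate 4. Its log2 fold change was -0.71 (SE 0.229, adjusted p = 0.0625), and it was called without LLY-283 replicate 4 (fold change -0.88, adjusted p = 0.0230). It overlaps MEG3 and MEG8, more abundant lncRNAs on the same strand, so its value may hold their reads. MEG3 fell from 159.7 ± 6.26 to 103.1 ± 24.6 TPM, by 0.67 on the log2 scale (adjusted p = 0.0223). MEG8 fell from 18.5 ± 1.00 to 14.8 ± 1.30 TPM, by 0.32 on that scale (adjusted p = 0.0132). MIR762HG had means of 2.34 and 1.57 TPM (log2 fold change -0.54, adjusted p = 0.0864), and it was called without vehicle replicate 3 (adjusted p = 0.0319). MIR548XHG had means of 1.75 and 1.19 TPM (log2 fold change -0.56, adjusted p = 0.192) and MIR3677HG of 2.67 and 1.97 TPM (-0.49, adjusted p = 0.239). Without LLY-283 replicate 4 these fold changes were -0.36 and -0.21. Those of MIR17HG, MIR30DHG and MIR4453HG, negative with all libraries, were then 0.0537, 0.0663 and 0.008042, and that of MIR23AHG went from -0.17 to -0.0171. The other members of at least 1 TPM that were not called differed less. Their vehicle and LLY-283 means were 3.29 and 3.57 TPM for MIR3667HG, 3.04 and 2.83 TPM for MIR3936HG, 2.57 and 2.32 TPM for MIR30DHG, 2.39 and 2.49 TPM for MIR600HG, and 1.98 and 1.81 TPM for MIR4453HG. The adjusted p of these 5 lay between 0.441 for MIR3667HG and 0.772 for MIR600HG. The 14 members under 1 TPM that were not called had fold changes from -0.72 to 0.36, and their lowest adjusted p was 0.147, that of MIR9-1HG.

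**Figure D4:**
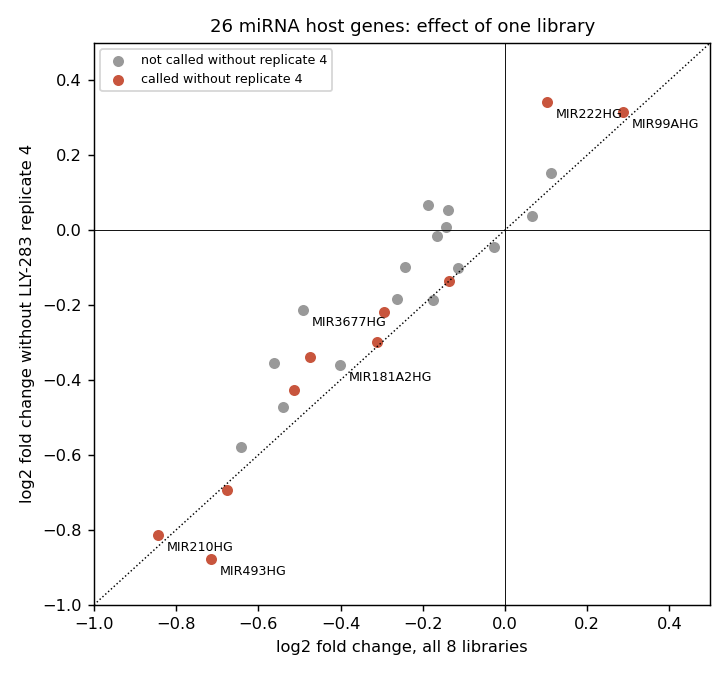
The log2 fold change with all 8 libraries (horizontal axis) against that without LLY-283 replicate 4 (vertical axis) for the 26 named members, which are those of at least 1 TPM and MIRLET7IHG, with members called without that library in red and the dotted line marking equal values. MIR222HG moves from 0.10 to 0.34 and MIR493HG from -0.71 to -0.88, while MIR210HG and MIR99AHG stay near the line.

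Hosts of neural microRNAs were at or near 0. Of 7 on the list, only MIR9-1HG reached the limit, with 0.37, 0.40, 0.28 and 0.33 TPM in vehicle and 0.26, 0.24, 0.07 and 0.15 TPM in LLY-283. Its groups did not overlap, but it was not called (log2 fold change -0.72, SE 0.307, adjusted p = 0.147). MIR9-3HG had a mean of 0.0788 TPM. MIR124-1HG and MIR124-2HG, hosts of the neuronal miR-124, were listed at 0 in all 8 libraries. Of 6 hosts of microRNAs of epithelium, muscle or liver, MIR200CHG, MIR205HG, MIR1-1HG, MIR133A1HG and MIR122HG were listed at 0 in all libraries. No value is given for MIR203HG and MIR9-2HG, which were not matched by symbol.

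Other classes of long noncoding genes were set beside the members. Among genes tested, the share decreased was 13.8% of 414 LINC genes, 23.2% of 673 antisense (-AS) genes and 16.5% of 351 divergent transcripts (-DT), against 22.5% of the members. The share increased was 1.69%, 0.297% and 0.285%, against 2.5%. The median fold changes were -0.28, -0.40 and -0.385, against -0.268 for the members and -0.04 for 14183 protein-coding genes. All of these classes were thus below the median of protein-coding genes, and the members' median was close to that of the LINC genes. The classes differ in level, with a median TPM of 1.83 for the members and 0.579, 0.8 and 0.655 for the others. These are descriptions without a test.

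In the annotation used here (GENCODE release 44), 74 microRNA hairpins lay on the strand of 38 members, 35 of them within introns, 35 within exons and 4 across an exon edge. For the called members, miR-210, miR-1915, let-7i, miR-100, let-7a and miR-125b of MIR100HG, and both miR-181 hairpins lay in introns, whereas miR-22, miR-4435 and let-7b lay in exons and miR-503 across an exon edge. In MIR99AHG, the increased member, miR-99a lay in an intron and let-7c and miR-125b in exons. All 74 hairpins were listed as genes of their own, and 3 were above 0 in any library. MIR210 had 19.96 TPM in vehicle replicate 1 and 17.72 TPM in vehicle replicate 4, MIR221 had 59.22 TPM in LLY-283 replicate 2, and MIR3936 had 19.48 TPM in vehicle replicate 1, with 0 elsewhere. Such short features gain a large TPM from few reads and are poorly caught in poly(A) libraries, so no group was compared. Whether the counting used strand is not given in the sources used here, so values of MIR22HG, MIR181A2HG and MIR4435-2HG, which overlap protein-coding genes on the opposite strand, may hold reads of the partner. BCL2L11, a partner of MIR4435-2HG, had a fold change of -0.17 (adjusted p = 0.137).

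The pathway that turns these hosts into microRNAs was read from a list of 28 genes. LIN28A, LIN28B and TRIM71, brakes on or antagonists of let-7, were under the limit of 0.1 TPM. Of the 25 tested, 3 were decreased and 5 were increased, and the background of all genes tested was 11.7% and 5.25%. Their median fold change was 0.04. Without LLY-283 replicate 4, 8 were increased, and the share of all genes increased was then 6.5%. Under median-of-ratios scaling 9 were increased (9.22% of all genes), and without the eBayes trend 3 were increased and 1 was decreased (3.22% and 9.29% of all genes).

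Of the nuclear processing genes, DROSHA, the nuclease of the first step, rose from 50.1 ± 2.49 to 57.5 ± 3.86 TPM (log2 fold change 0.20, SE 0.0538, adjusted p = 0.0342), a call lost without vehicle replicate 1, 3 or 4 or LLY-283 replicate 1 or 3, with no filter on low values and without the eBayes trend (adjusted p up to 0.088). A block on replicate number ended the DROSHA call as well (adjusted p = 0.0594). Its partner DGCR8 was not called (35.7 ± 0.454 and 36.9 ± 4.82 TPM, adjusted p = 0.803) with replicate 4 of LLY-283 at 29.75 TPM and the other LLY-283 libraries between 38.81 and 40.08 TPM. Without replicate 4 its fold change was 0.14 and it was called (adjusted p = 0.0130). SAFB2, which aids cutting of poor hairpins in clusters, rose from 62.9 ± 0.537 to 77.2 ± 3.09 TPM, by 0.29 on the log2 scale (adjusted p = 0.000643), and ERH, which binds DGCR8, rose by 0.16 (adjusted p = 0.0154). Without the eBayes trend the ERH call was lost and that of SAFB2 held. The helicase DDX17 fell from 180.3 ± 8.83 to 137.7 ± 19.2 TPM, a log2 fold change of -0.40 (adjusted p = 0.0187), a call lost without vehicle replicate 3 (adjusted p = 0.0541) or without the eBayes trend (adjusted p = 0.0562). The exporter XPO5 (log2 fold change 0.09, adjusted p = 0.161) and DICER1 (0.13, adjusted p = 0.400) were not called, but XPO5 was called increased under median-of-ratios scaling (0.15, adjusted p = 0.0297).

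Among the effectors, AGO2, the slicing Argonaute, was not called (log2 fold change 0.04, adjusted p = 0.770). AGO3 rose from 14.4 ± 0.770 to 19.3 ± 2.31 TPM, by 0.41 on the log2 scale (adjusted p = 0.0119), whereas AGO4, at 9.04, 8.78, 9.05 and 9.82 TPM in vehicle and 7.93, 5.21, 5.23 and 3.84 TPM in LLY-283, fell by 0.76 on the log2 scale (adjusted p = 0.0193), a call lost without vehicle replicate 4 (adjusted p = 0.0552) or without the eBayes trend (adjusted p = 0.0504). TENT2, a polymerase that adds bases to the 3′ end of RNAs including microRNAs, had 27.06, 27.50, 31.61 and 28.73 TPM in vehicle and 45.13, 44.03, 47.16 and 39.59 TPM in LLY-283. It had the largest increase of the list (log2 fold change 0.61, SE 0.065, adjusted p = 0.000485). ZSWIM8, the ubiquitin ligase receptor of target-directed microRNA decay, fell from 59.0 ± 3.53 to 44.9 ± 5.18 TPM, a log2 fold change of -0.40 (adjusted p = 0.00917).

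**Figure D5:**
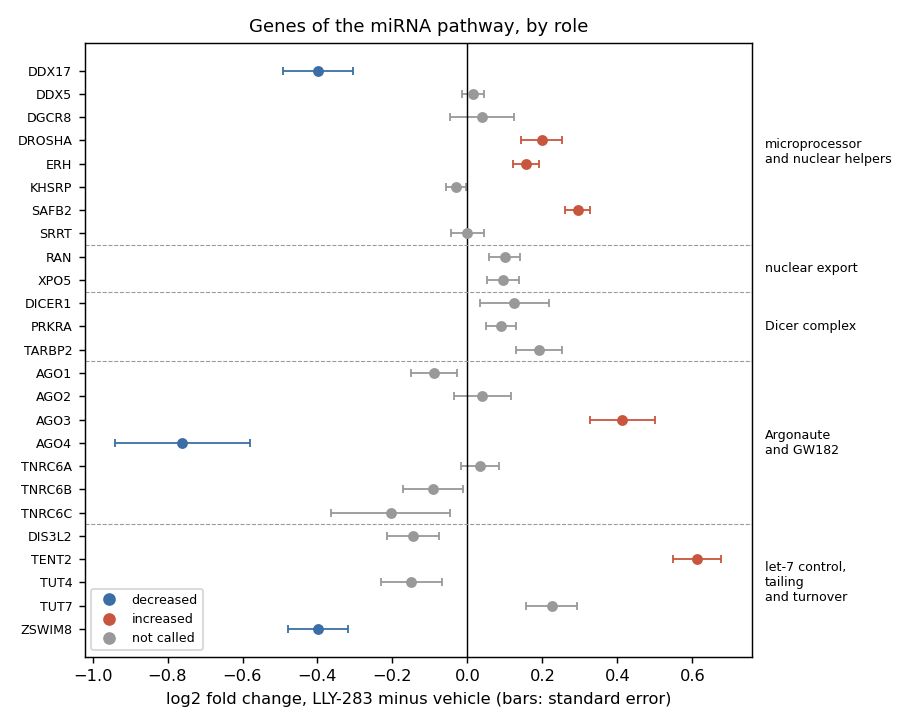
The log2 fold change (LLY-283 minus vehicle, of TPM + 0.1) of the 25 pathway genes tested, grouped by role from nuclear processing at the top to turnover at the bottom, with bars of 1 standard error and blue, red and grey for decreased, increased and not called. TENT2 (0.61) and AGO4 (-0.76) lie farthest from 0.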

How the data were processed

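RNAseq was measured in 8 libraries of U251 cells, 4 per group. Per the submitters' processing notes, reads were demultiplexed with bcl2fastq 2.20, trimmed with cutadapt 1.18, mapped to hg38 with STAR and quantified with RSEM (the study's methods name GENCODE release 41), and the authors deposited the result as TPM per gene and library with 2 decimals. TPM removes depth and length but not library composition, and it keeps no counts, so count tests were not used.

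From these values, log2(TPM + 0.1) of the 21179 genes averaging 0.1 TPM or more was compared with limma 3.58.1 (lmFit, eBayes with trend) in R 4.3.3, and p-values were adjusted by Benjamini-Hochberg over all of them. Members, lists and the naming rule were chosen with earlier results of these data known. Named were every called member, every member of at least 1 TPM, those nearest the limit on each side, DROSHA, DGCR8, XPO5, DICER1 and AGO2, and in the pathway list the 3 called genes with the smallest p in each direction; other genes were named for their position, level or identity after their values were seen. Positions came from GENCODE release 44, which matched 39 of the 40 members by identifier. Tried instead were a replicate block, each library left out, pseudocounts of 0.5 and 1, no filter or one at 1 TPM, scaling by quantiles or by median of ratios, and eBayes in robust form or without trend; those for the MIR99AHG ratio were chosen after seeing the data.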

Additional observations from a re-analysis of the deposited data

Results flagged for a closer look

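In groups of 4 libraries, 78 sets of values were examined for a highest or lowest library far from the other 3 (Dixon's criterion on the gap over the range). Chance alone gives such a value in about 5% of sets, and 6 were found. In LLY-283 replicate 4, MIR222HG was at 15.13 TPM, MIR22HG at 13.81 TPM and DGCR8 at 29.75 TPM, each far below the other LLY-283 libraries, and genes of the mitochondrial genome took 7.194% of the library. In LLY-283 replicate 2, MIR4458HG was at 3.1 TPM, below the other 3. In vehicle replicate 4, MIR181A2HG was at 5.49 TPM, above the other 3.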

How the results depend on the processing

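Of 628 refits of a named gene's fold change, 558 kept their direction and their side of the threshold, 45 lost a call, 6 gained one and 19 changed sign. MIR210HG, MIR99AHG and MIR1915HG kept their calls under all 17 alternatives. The number of members decreased (9) was 5 with the replicate block (8.97% of all genes) and 4 to 8 with 1 library left out, lowest without vehicle replicate 4 (4) and LLY-283 replicate 3 (5). It was 6 under quantile normalization (8.16% of all genes) and 6 without the eBayes trend (9.29% of all genes). The block lost MIR100HG, MIR22HG, MIR181A2HG and MIRLET7IHG (adjusted p from 0.0525 to 0.0831), as well as DROSHA (0.0594). Replicate numbers did not pair the samples, since the correlations of deviations between same-numbered libraries were -0.0255, 0.0188, -0.0313 and -0.0299. No library correlated best with the library of its own number. Members increased (1) were 2 under quantile normalization, where MIR3667HG was added, and 1 to 2 with 1 library left out. Members decreased above 1.5-fold (3) were 1 with a pseudocount of 1 and 1 under quantile normalization. The median fold change of the members (-0.268) was -0.145 with a pseudocount of 0.5, -0.125 with a pseudocount of 1 and -0.078 under quantile normalization. Pathway genes increased (5) were 9 under median-of-ratios scaling, 3 without the eBayes trend, where 1 was decreased (3.22% and 9.29% of all genes), and 4 to 8 with 1 library left out. The causes were not tested. Over all genes, decreased against increased calls were 2481 and 1112, 1729 and 1702 under quantile normalization, and 1711 and 1953 under median-of-ratios scaling.

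None of the genes whose fold change changed sign was called with all libraries. Under quantile normalization the fold changes became 0.14 for MIR4458HG, 0.0675 for MIR3936HG, 0.006138 for MIR31HG, 0.0462 for MIR4453HG, 0.0519 for MIR17HG and 0.0427 for MIR23AHG, and under median-of-ratios scaling 0.032 for MIR4458HG. With 1 library left out they ranged from -0.0859 to 0.0395 for MIR4458HG, -0.0187 to 0.14 for MIR600HG, -0.24 to 0.0476 for MIR3936HG, -0.0001726 to 0.34 for MIR222HG, -0.017 to 0.0807 for AGO2, -0.003688 to 0.14 for DGCR8, -0.29 to 0.0663 for MIR30DHG, -0.22 to 0.008042 for MIR4453HG and -0.33 to 0.0537 for MIR17HG. MIRLET7IHG was not tested with a minimum of 1 TPM. Depth is unknown, so no limit of detection can be set for members near 0.1 TPM.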
